A study of Mus musculus with 32 samples.

Results

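The acute-phase plasma proteins followed here are 37 mouse genes. They were chosen by name from what is known of the liver's answer to infection, with earlier results of these data known. Of these, 22 are positive acute-phase genes or genes that respond with them, and 15 encode negative acute-phase or constitutive plasma proteins. Each was found by its gene name in the scanner files. All 37 were on the array and all 37 passed the filter on dim probes, out of 19199 gene names tested. Since the choice was not blind to these data, counts of called genes among the 37 are no independent check.

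Hepatocytes make most of the proteins of blood plasma. When macrophages sense bacterial products they release interleukin-6, interleukin-1 and tumour necrosis factor, and these act on hepatocytes through STAT3, NF-kB and C/EBP transcription factors to raise the positive acute-phase genes, which encode defence, scavenging and protease inhibitor proteins. Carriers such as transthyretin, retinol-binding protein and corticosteroid-binding globulin are known to decline over the same course and are called negative acute-phase proteins. In the mouse the serum amyloid A proteins, serum amyloid P and the orosomucoids respond most, and C-reactive protein, a main reactant in humans, is a minor one.

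The samples were livers of 32 single mice, each hybridised to its own one-colour array. Mice were E2F1+/+ (strain given as B6x126 F2) or E2F1-/- (the strain label joins the names B6 and 129 with the allele), and they received saline or systemic LPS, the endotoxin of Gram-negative bacteria. E2F1 is a transcription factor of the cell cycle, and the study asked what it does in the innate response to LPS. Wild type (WT) groups held 6 saline mice, 4 mice at 6 h of LPS and 6 mice at 20 h of LPS, and the knockout (KO) groups held the same numbers. Saline mice are labelled 20 h in both genotypes, so the 6 h mice have no saline group of their own time. The titles of the WT samples read B6129, which differs from their strain label. Dose, sex, age and the deleted stretch of E2f1 are not given in the sources used here. Genotype and strain background cannot be told apart. The extraction text speaks of lung, while every tissue label says liver, and all 10 hepatocyte markers were measured. Of 6 lung epithelium markers 3 passed the filter, and the surfactant genes Sftpc and Sftpb were well above background on no array. The surfactant genes Sftpa1 and Sftpd were well above it on at least 1 array. In WT, 2 of the 3 markers that passed were higher at each time of LPS. The sum of the 6 markers, in multiples of the array's 75th percentile, was 0.115 to 0.313 in saline and 0.533 to 2.48 at 20 h.

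Levels below are log2 processed signals minus the 75th percentile of the same array, so that 0 is the 75th percentile of that array and 1 unit is a doubling. A gene is called higher or lower where limma's adjusted p is under 0.05, and ± after a change is its standard error. The 75th percentile itself lay between 282 and 1138 scanner units, and 20203 to 28891 spots per array were well above background. The number of arrays limits the precision. Probes for Saa1, Saa2, Saa3, Hp, Hpx, Serpina3m, Ambp, Alb and Ahsg came within 5% of the scanner's ceiling on some arrays, and that ceiling lay between 9.11 and 11.1 log2 units above the 75th percentile. Nearness to it was judged on the mean signal before processing, so processed levels can pass it. The scanner software flagged no spot as saturated. Changes of these 9 genes may be understated, and a level at the ceiling is a lower bound. Where a probe was near the ceiling in both groups, the scaled change can also follow the arrays' 75th percentiles, so its size and sign are uncertain.

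Libraries that stand apart touch every KO result. They also enter WT calls near the threshold, since all groups share the estimate of spread. The library labelled KO saline replicate 1 correlated best with the KO LPS 6 h group (r = 0.975, against 0.909 with the other KO saline arrays), and the library labelled KO LPS 6 h replicate 1 correlated best with KO saline (0.984 against 0.927). These 2 arrays were on the same slide. KO results are given with all arrays and without this pair. The pair was picked by its levels in these same data. More calls and larger changes without it can follow from that choice, so they cannot be taken as better estimates. A further library, KO LPS 20 h replicate 4, correlated best with KO saline (0.970 against 0.942 with its own group), and its part is given where it changes a value. The E2f1 probe itself read -3.36 ± 1.01 (SD, n = 6) in WT saline and -3.23 ± 0.81 (SD, n = 6) in KO saline. At 20 h of LPS it read -5.57 ± 0.88 (SD, n = 5, 1 spot left out) in WT, with 2 arrays measured above background, and -2.06 ± 1.57 (SD, n = 6) in KO, where the signal was higher (11.4-fold, adjusted p = 0.0036). Since the deleted part is not given here, this probe does not check the genotype labels, which are used as given.

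The serum amyloid A probes are shown first because the genes are close paralogs. Saa1 to Saa4 lie side by side on chromosome 7, and the 60-base probes below, copied from the scanner files with their positions on mouse build mm9, read Saa1 and Saa3. The second Saa1 probe maps to a stretch of genome longer than the probe.
Saa1, chr7:53996070-53996129: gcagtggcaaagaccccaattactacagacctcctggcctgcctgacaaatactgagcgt
Saa1 (second probe), chr7:53996167-53996639: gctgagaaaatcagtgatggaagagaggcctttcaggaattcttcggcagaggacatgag
Saa3, chr7:53968031-53968090: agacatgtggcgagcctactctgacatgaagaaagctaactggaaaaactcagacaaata
Across the 6 probes of this family, no pair shared more than 8 bases in a row. The 3 orosomucoid probes on chromosome 4 shared no more than 7, the 3 Serpina3 probes no more than 6, and the metallothionein probes no more than 6. Whether a probe also binds a paralog's transcript was not tested, so values of single members of these families are uncertain to that degree. Of the 37 genes, 5 had 2 probes each, and the brighter was used. The second probe moved the same way in WT for Saa1, Saa4, Mt1 and Steap4 at both times. For Afm the second, dim probe gave -1.69 at 6 h where the brighter gave 0.26, and at 20 h it was well above background on none of the 6 WT arrays, so no change is given for it there.

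Promoter sequence was available for 30 of the 37 genes, and the 250 bases before the annotated start are printed for 4 of them, because these genes were among those that rose and because between them they hold a match to each motif searched. Sequences are from RefSeq, build GRCm38.p6, and run 5′ to 3′ along the gene. Capitals mark C/EBP-type matches (TTGCNNAA) in Saa1 and Saa2, metal response matches (TGCACNC or TGCGCNC) in Mt2, and, in Steap4, matches to the C/EBP type, to the STAT form TTCNNNGAA and to the NF-kB consensus, each searched on both strands.
Saa1, chr7:46742981-46743230, minus strand: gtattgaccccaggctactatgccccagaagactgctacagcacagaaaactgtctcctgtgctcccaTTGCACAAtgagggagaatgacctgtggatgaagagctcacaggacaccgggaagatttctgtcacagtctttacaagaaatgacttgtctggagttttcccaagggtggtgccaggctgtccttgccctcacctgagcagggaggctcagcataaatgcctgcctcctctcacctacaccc
Saa2, chr7:46751583-46751832, plus strand: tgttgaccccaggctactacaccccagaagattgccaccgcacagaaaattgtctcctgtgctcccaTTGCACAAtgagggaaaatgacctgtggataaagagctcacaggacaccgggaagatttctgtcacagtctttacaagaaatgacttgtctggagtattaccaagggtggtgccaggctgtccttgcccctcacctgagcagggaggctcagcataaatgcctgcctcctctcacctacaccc
Mt2, chr8:94172368-94172617, plus strand: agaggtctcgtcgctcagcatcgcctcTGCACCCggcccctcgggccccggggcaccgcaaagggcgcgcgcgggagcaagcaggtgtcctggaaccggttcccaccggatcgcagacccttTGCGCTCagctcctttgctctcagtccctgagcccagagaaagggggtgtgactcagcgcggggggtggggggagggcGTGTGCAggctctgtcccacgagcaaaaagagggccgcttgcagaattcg
Steap4, chr5:7960222-7960471, plus strand: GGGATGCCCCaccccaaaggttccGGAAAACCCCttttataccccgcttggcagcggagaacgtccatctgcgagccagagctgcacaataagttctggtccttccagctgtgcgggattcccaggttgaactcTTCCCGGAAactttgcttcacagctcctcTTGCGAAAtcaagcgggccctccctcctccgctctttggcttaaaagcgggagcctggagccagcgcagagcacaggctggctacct
A C/EBP-type match stood in 10 of the 18 positive genes with a promoter (Cp, Hpx, Mt2, Orm2, Orm3, Saa1, Saa2, Saa3, Saa4 and Steap4) and in 4 of the 12 negative or constitutive genes (Ahsg, Alb, Itih2 and Rbp4), while 9.56% of all 32851 promoters held one. The STAT form was found in Apcs, Itih4, Serpina3g and Steap4 (7.02% of all promoters), and the NF-kB consensus in Serpina3g and Steap4 (3.90% of all promoters). The metal response core was found in Mt1, Mt2, Orm3 and Ahsg (21.4% of all promoters), with 3 matches in Mt2. The 4 matches in Steap4 do not overlap. These matches describe letters in a window and were not tested against binding.

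In WT liver, 16 of the 22 positive genes were higher at 6 h of LPS and 19 were higher at 20 h. None of the 15 negative or constitutive genes was lower at 6 h, and 7 were lower at 20 h. Of all gene names, 12.5% were called higher and 16% lower at 6 h, and 16.5% higher and 20.1% lower at 20 h. The median change of the positive genes was 1.77 at 6 h and 2.21 at 20 h, and that of the negative or constitutive genes was 0.24 and -0.50, beside medians of 0.01 and -0.02 over all gene names. In whole liver, fewer cells of a type and less RNA per cell cannot be told apart.

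**Figure D1:**
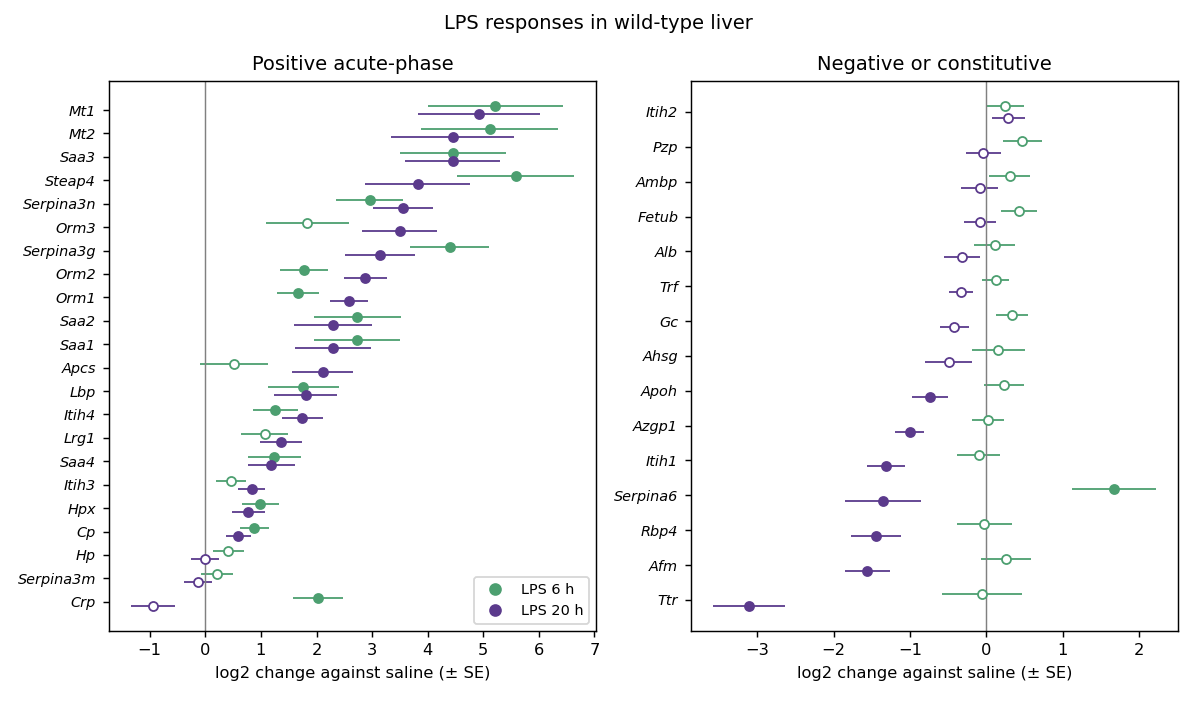
Log2 change against saline in WT liver for each gene, at 6 h (green) and 20 h (violet) of LPS, with standard error bars. Filled points passed adjusted p under 0.05 and open points did not. Most positive genes lie right of 0 at both times, and the negative genes that moved lie left of 0 at 20 h, apart from Serpina6, which lies right of 0 at 6 h.

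Serum amyloid A proteins ride on high density lipoprotein and are the strongest acute-phase reactants of mouse plasma. The Saa3 level in WT saline ran from 2.50 to 7.17 with a median of 4.87. At 6 h the 4 arrays read 8.97, 9.43, 9.24 and 9.60, and at 20 h the 6 arrays ran from 8.58 to 9.96 with a median of 9.24. Every LPS array was above every saline array. The rise was 4.45 ± 0.95 at 6 h (21.9-fold, adjusted p = 0.00073) and 4.45 ± 0.85 at 20 h (21.8-fold, adjusted p = 0.00016).

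Saa1 and Saa2, the main circulating forms, moved together. Saa1 in WT saline ran from 4.87 to 9.50 with a median of 7.55, at 6 h it read 9.86, 10.12, 10.13 and 10.54, and at 20 h it ran from 9.02 to 10.14 with a median of 9.81. Saline replicate 5 (9.50) overlapped the 20 h arrays. Saa1 rose by 2.73 ± 0.77 at 6 h and by 2.30 ± 0.69 at 20 h, and Saa2 by 2.73 ± 0.78 and 2.30 ± 0.70. Both probes were near the ceiling on 3 of the 4 arrays at 6 h and on 5 of the 6 at 20 h, and on no WT saline array, so these changes may be understated. The second Saa1 probe changed by 3.30 and 2.95. Saa4, a constitutive form of the family in the mouse, was higher by 1.24 ± 0.48 at 6 h (adjusted p = 0.0493) and by 1.19 ± 0.42 at 20 h, and its second probe gave 0.47 and 0.30. Spread among the saline mice was wide for the inducible forms, with an SD of 1.65 for Saa1 and 1.73 for Saa3 against 0.44 for Saa4.

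Orosomucoids, small acidic glycoproteins that bind drugs and dampen leukocytes, were higher at 20 h than at 6 h in their means. Orm2 in WT saline ran from 4.80 to 5.68 with a median of 5.33. It read 6.73, 6.98, 7.54 and 6.93 at 6 h and ran from 7.85 to 8.36 with a median of 8.18 at 20 h. The 3 groups did not overlap. Orm2 rose by 1.78 ± 0.44 at 6 h (adjusted p = 0.00263) and by 2.88 ± 0.39 at 20 h (7.34-fold, adjusted p = 2.12e-06), and the step between the times, 1.1 ± 0.44, just missed the threshold (adjusted p = 0.0502). Orm1 rose by 1.67 ± 0.37 and by 2.58 ± 0.35 (5 arrays at 20 h, 1 spot left out). Orm3 reached the threshold at 20 h (3.50 ± 0.67, 11.3-fold), while its 6 h value of 1.83 ± 0.75 did not (adjusted p = 0.0672).

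Haptoglobin and haemopexin clear free haemoglobin and haem. Hpx in WT saline ran from 8.62 to 9.22, read 9.83, 10.03, 9.97 and 9.96 at 6 h, and ran from 9.18 to 10.11 at 20 h. It was higher at 6 h by 0.99 ± 0.33 (1.99-fold) and at 20 h by 0.77 ± 0.29. Hp read 9.53 ± 0.40 (SD, n = 6) in saline, 9.94 ± 0.26 (SD, n = 4) at 6 h and 9.53 ± 0.31 (SD, n = 6) at 20 h. Its probe was near the ceiling on 1 of 6 saline arrays, 3 of 4 at 6 h and all 6 at 20 h, so the 20 h level is a lower bound and no fold is given for it. With normexp and quantile normalization the 20 h change of Hp was 0.24.

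Pentraxins and LPS-binding protein recognise microbial surfaces. Apcs, serum amyloid P, ran from 1.97 to 5.60 in WT saline, read 4.34, 3.45, 4.00 and 4.83 at 6 h and ran from 5.06 to 6.34 at 20 h. The 6 h arrays lay inside the saline range, and Apcs was higher at 20 h (2.11 ± 0.54, 4.33-fold, adjusted p = 0.00307) and higher at 20 h than at 6 h (1.60 ± 0.61, adjusted p = 0.0415, and 0.222 with the slide as a block). Crp took the other course. It ran from 1.62 to 2.88 in saline, read 5.38, 3.89, 3.93 and 4.54 at 6 h, and ran from 0.65 to 2.31 at 20 h. All 6 h arrays lay above all others. Crp rose by 2.02 ± 0.45 at 6 h (4.07-fold, adjusted p = 0.00104) and was 7.80-fold lower at 20 h than at 6 h (adjusted p = 9.51e-06), and its 20 h value against saline was -0.94 ± 0.40 (adjusted p = 0.066, and 0.0141 without the pair of KO libraries that stand apart). Lbp, which hands LPS to CD14, rose by 1.76 ± 0.63 and by 1.80 ± 0.57, and every LPS array (4.80 to 6.87) was above every saline array (3.16 to 4.26). Lrg1, a leucine-rich glycoprotein, read 7.47 to 8.86 in saline, 8.98 to 9.51 at 6 h and 8.98 to 9.98 at 20 h, and passed at 20 h (1.36 ± 0.38), its 6 h value being 1.07 ± 0.43 (adjusted p = 0.059).

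**Figure D2:**
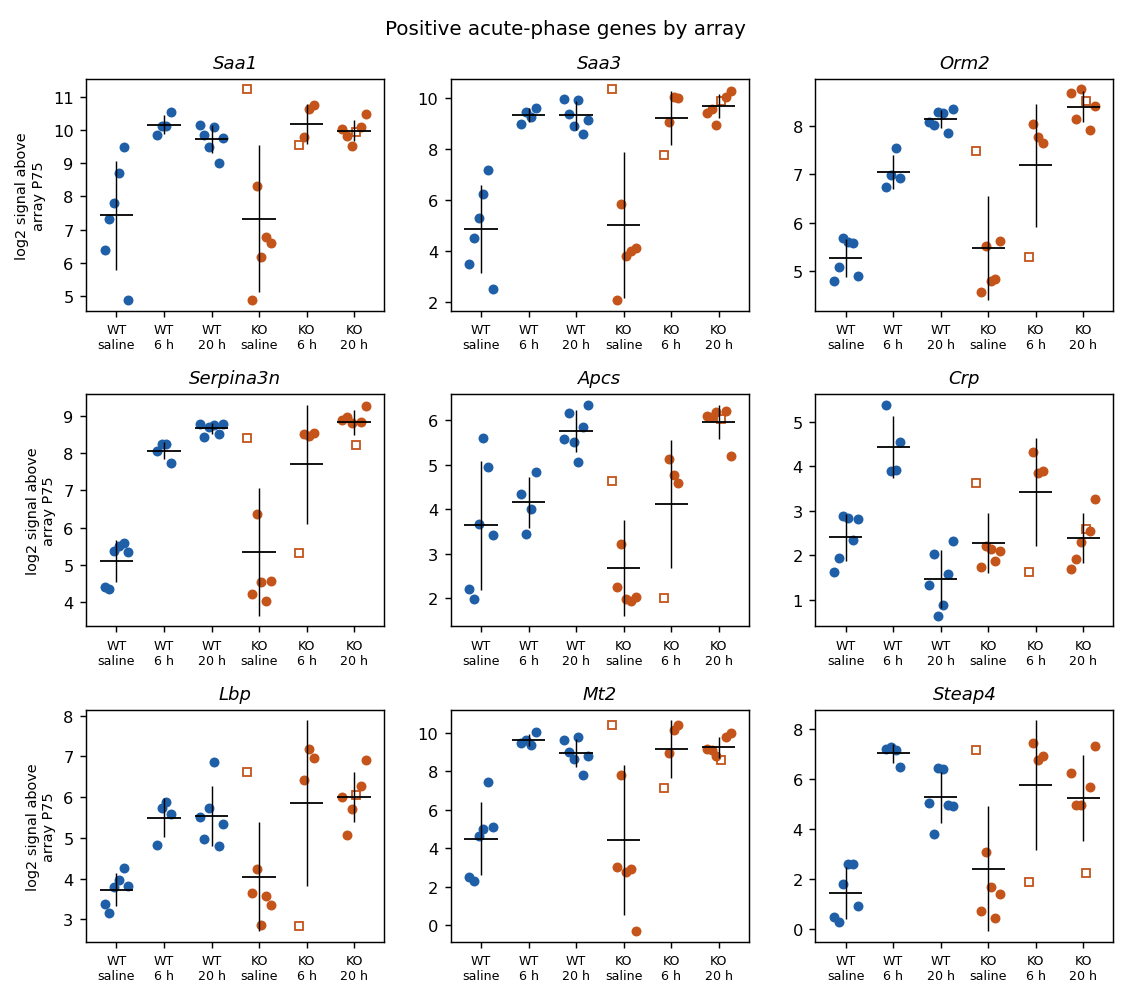
Level of 9 positive acute-phase genes on every array (points), with the group mean (bar) and SD (vertical line), in log2 units above the array's 75th percentile. WT is blue, KO is orange, and open squares are the 3 libraries that stand apart. In WT, Crp is high at 6 h only, and Apcs is high at 20 h. The open square of KO saline is the highest array of its group in all 9 panels, and that of KO 6 h is the lowest of its group in all 9.

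Serpins of the Serpina3 cluster on chromosome 12 are inhibitors of leukocyte proteases. Serpina3n ran from 4.36 to 5.60 in WT saline, read 8.04, 8.23, 8.23 and 7.74 at 6 h and ran from 8.42 to 8.78 at 20 h. These groups did not overlap. It rose by 2.96 ± 0.60 (7.78-fold) and by 3.55 ± 0.54 (11.8-fold, adjusted p = 9.21e-06). Serpina3g rose by 4.39 ± 0.71 at 6 h (21-fold) and by 3.14 ± 0.63 at 20 h (8.80-fold). Serpina3m gave 0.21 ± 0.28 and -0.14 ± 0.25, with 1 saline, 2 of the 6 h and 2 of the 20 h arrays near the ceiling.

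Inter-alpha-trypsin inhibitor heavy chains, which stabilise hyaluronan, split by member; Itih1, Itih3 and Itih4 lie on chromosome 14 and Itih2 on chromosome 2. Itih4 was higher at 6 h (1.26 ± 0.40) and at 20 h (1.75 ± 0.36, 3.36-fold), and Itih3 was higher at 20 h (0.83 ± 0.24), its 6 h value being 0.46 ± 0.27. Itih1 ran from 5.11 to 5.60 in saline, read 4.99, 5.26, 5.16 and 5.34 at 6 h and ran from 3.73 to 4.38 at 20 h, below every other WT array. It fell at 20 h by 1.31 on the log2 scale (SE 0.25, 2.49-fold lower, adjusted p = 0.000135). Itih2 did not pass the test at either time (0.25 ± 0.25 and 0.29 ± 0.22). Ambp, the light chain partner, gave 0.30 ± 0.27 and -0.09 ± 0.24.

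In WT, Mt1, Mt2 and Steap4 rose at both times. The metallothioneins Mt1 and Mt2 bind zinc and copper, and Steap4 is a metalloreductase of iron and copper. Mt2 in WT saline read 2.52, 2.31, 4.64, 5.0, 7.43 and 5.08, at 6 h it read 9.45, 9.62, 9.34 and 10.02, and at 20 h it ran from 7.82 to 9.78 with a median of 8.90. Saline replicate 5 was the highest of its group and still below the LPS arrays. Mt2 rose by 5.11 ± 1.23 (34.6-fold) and by 4.45 ± 1.1 (21.8-fold), and Mt1 by 5.22 ± 1.22 (37.3-fold) and by 4.92 ± 1.09 (30.4-fold).

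Steap4 ran from 0.30 to 2.63 in WT saline with a median of 1.37, read 7.23, 7.29, 7.17 and 6.48 at 6 h and ran from 3.82 to 6.47 with a median of 5.03 at 20 h. All 20 h arrays lay between the other groups. It rose by 5.58 ± 1.05 at 6 h (47.9-fold, adjusted p = 0.000221) and by 3.82 ± 0.94 at 20 h (14.1-fold), and the difference between the times, -1.76 ± 1.05, did not pass (adjusted p = 0.202). Cp, ceruloplasmin, the copper ferroxidase of plasma, was higher by 0.88 ± 0.26 and by 0.59 ± 0.23. Trf, transferrin, gave 0.12 ± 0.18 and -0.33 ± 0.16.

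Among the carriers, transthyretin (Ttr), which carries thyroid hormone and retinol-binding protein, fell at 20 h in WT. Ttr in saline ran from 4.79 to 5.50 with a median of 5.29, read 5.29, 5.23, 5.15 and 5.0 at 6 h, and ran from 0.81 to 2.82 with a median of 2.18 at 20 h. Levels at 6 h lay inside the saline range and levels at 20 h lay below both. The 6 h change was -0.06 ± 0.52, and at 20 h the level fell by 3.11 on the log2 scale (SE 0.47, 8.64-fold lower, adjusted p = 8.63e-06). Its partner Rbp4, the plasma retinol carrier, ran from 8.75 to 10.19 in saline and from 7.58 to 9.01 at 20 h, with replicate 4 the only 20 h array inside the saline range. Rbp4 gave -0.03 ± 0.36 at 6 h and fell at 20 h by 1.45 (SE 0.32, 2.73-fold lower).

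Serpina6, corticosteroid-binding globulin, moved in opposite directions at the 2 times. It ran from 5.24 to 6.22 in WT saline, read 7.21, 7.30, 7.50 and 7.25 at 6 h and ran from 2.85 to 5.98 with a median of 4.29 at 20 h. All 6 h arrays were above all others, and 5 of the 6 arrays at 20 h lay below every saline array, with replicate 4 (5.98) inside the saline range. It rose at 6 h (1.67 ± 0.55, 3.19-fold, adjusted p = 0.0222), was 2.55-fold lower than saline at 20 h (adjusted p = 0.0313) and was 8.14-fold lower at 20 h than at 6 h (adjusted p = 9.62e-05).

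Further declines at 20 h were seen in Afm, Apoh and Azgp1. Afm, an albumin relative that carries vitamin E, ran from 6.12 to 7.13 in saline and from 4.75 to 6.42 at 20 h, where replicate 4 (6.42) stood above the other 5 arrays. It fell by 1.56 (SE 0.29, 2.95-fold lower). Azgp1, a lipid-mobilising glycoprotein, ran from 7.83 to 8.37 in saline and from 6.82 to 7.38 at 20 h, without overlap, and was 2.0-fold lower. Apoh, a phospholipid-binding glycoprotein, was 1.67-fold lower. Gc, the vitamin D carrier, gave 0.33 ± 0.21 and -0.42 ± 0.19 against saline, neither of which passed, while its step from 6 h to 20 h did (1.69-fold lower, adjusted p = 0.00708).

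Alb, the main plasma protein, gave 0.11 ± 0.27 and -0.32 ± 0.24, and neither passed. Its probe was near the ceiling on 5 of 6 saline arrays, 3 of 4 at 6 h and 5 of 6 at 20 h, so a change above that level would not show. The values printed for Alb can also reflect the scaling of the arrays. Ahsg, fetuin A, an inhibitor of calcification, gave 0.16 ± 0.34 and -0.50 ± 0.31 with 3 of 6, 3 of 4 and 0 of 6 arrays near the ceiling. Fetub gave 0.43 ± 0.23 and -0.09 ± 0.21, and Pzp, a broad protease inhibitor related to alpha-2-macroglobulin, gave 0.47 ± 0.26 and -0.04 ± 0.23.

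**Figure D3:**
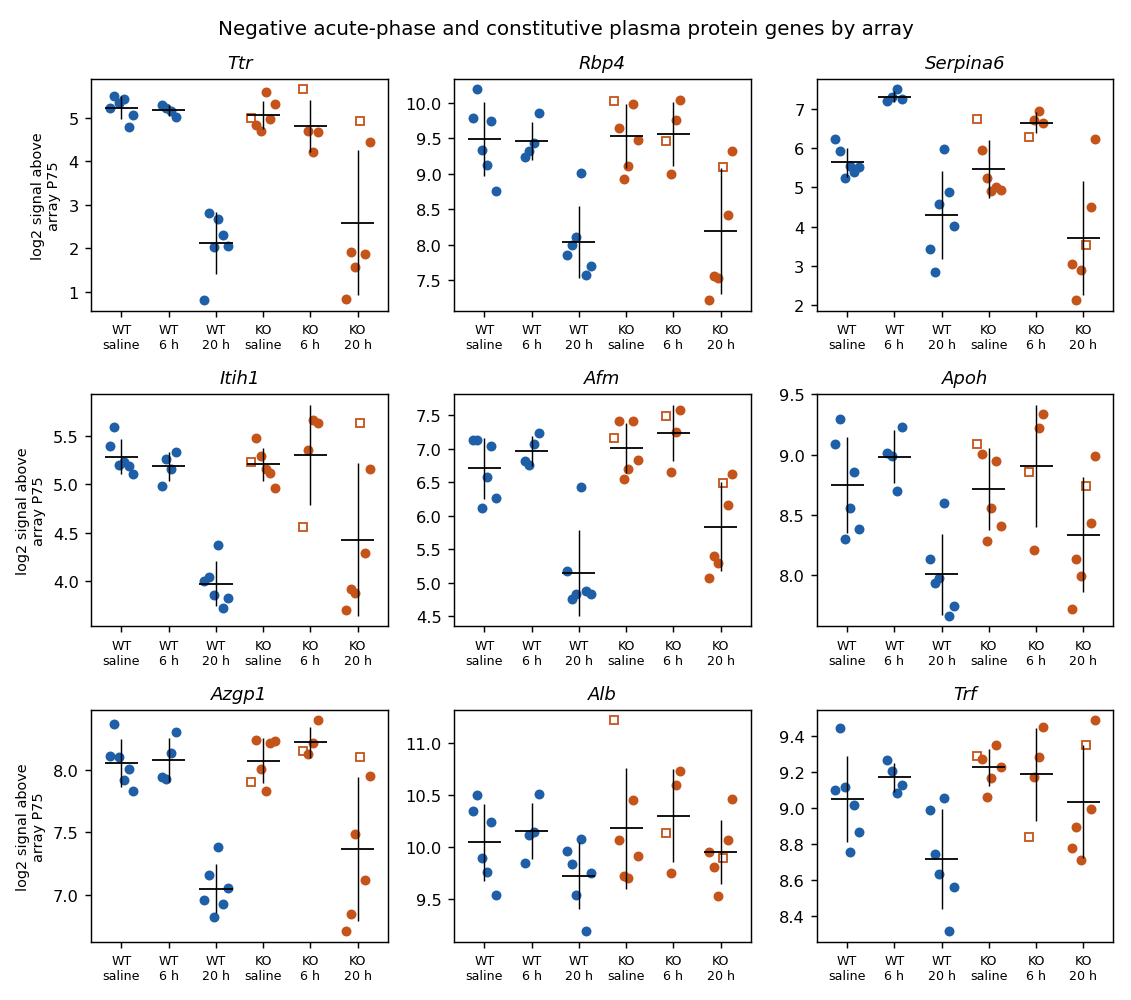
Level of 9 negative acute-phase or constitutive plasma protein genes on every array, drawn as for the positive genes. In WT, Ttr is at the saline level at 6 h and below it on all 6 arrays at 20 h, and Serpina6 is above saline at 6 h and mostly below it at 20 h. In KO at 20 h, the open square (replicate 4) and replicate 6 hold Ttr at 4.91 and 4.43, above the other 4 arrays.

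Between 6 h and 20 h in WT, 1 of the 37 genes was higher (Apcs) and 9 were lower (Crp, Itih1, Ttr, Rbp4, Serpina6, Apoh, Azgp1, Gc and Afm), where 17.1% of all gene names were higher and 17.2% lower. The count of 1 depended on single arrays and ran from 0 to 4 when each array was left out in turn, and was 4 without the pair of KO libraries that stand apart, since all groups share the estimate of spread. Without the pair the 9 lower became 13. At 6 h against saline 19 of the 37 were then higher in WT, and at 20 h 19 were higher and 8 lower. The median changes in WT stayed the same. Shares of all gene names called in WT without the pair are not given here. With the slide as a block, 13 genes were higher in WT at 6 h, 18 higher and 6 lower at 20 h, and 0 higher and 9 lower between the times. Arrays were scanned on 3 dates, and the third held no WT saline array. Within each date that held both groups, all 17 genes called at 6 h, all 26 called at 20 h and all 10 called between the times kept their sign. The same arrays gave the calls, so agreement was likely beforehand and this is no independent check. WT at 6 h had 1 array on date 1 and 1 on date 2, and WT at 20 h had 1 on date 3.

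Of 9 cytokine genes measured in WT, 5 were higher and 4 not called at 6 h, and 5 were higher, 1 lower and 3 not called at 20 h, beside 12.5% and 16.5% of all gene names higher. Tnf and Il10 were well above background on 1 of 6 saline arrays, so the sizes of their changes are uncertain. Tnf gave 5.45 and 3.16, Il1b by 5.33 and 2.69, and Il6 by 4.22 and 3.76 at the 2 times. Il1a, at 4.04 at 6 h, was lower again at 20 h than at 6 h. Il10, an inhibitory cytokine, gave 3.49 and 3.44, and Ctf1 was lower at 20 h (-1.43).

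Receptors and signal carriers moved in part. Their counts stand beside 12.5% of all gene names higher and 16% lower at 6 h, and 16.5% and 20.1% at 20 h. Of 11 receptors, 7 were higher at 6 h, and 4 higher and 1 lower at 20 h. Il1r1 gave 4.82 and 4.14 and Osmr, the oncostatin M receptor, gave 3.69 and 3.15. Il6st, the shared signal chain gp130, gave 0.68 and 0.05, of which the first passed, and Il6ra, the interleukin-6 receptor, gave 0.87 and 0.09, of which neither passed. Lifr, the leukaemia inhibitory factor receptor, fell at 20 h by 3.24. Of 16 transducers and inhibitors, 12 were higher and 3 lower at 6 h, and 7 higher and 2 lower at 20 h. Socs3, which blocks gp130 signalling, gave 5.05 and 3.42, Socs1 gave 8.10 and 5.65, Tnfaip3, an NF-kB brake, gave 6.18 and 4.21, and Stat3 gave 2.35 and 1.53, all called.

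Transcription factors of the acute-phase genes moved both ways. Of 21 measured in WT, 8 were higher and 5 lower at 6 h, and 5 higher and 4 lower at 20 h. Shares over all gene names were 12.5% higher and 16% lower at 6 h, and 16.5% and 20.1% at 20 h. The 20 h counts lay near those shares. Cebpd gave 4.23 and 3.19, both called, and Cebpb gave 2.23, called, and 1.01, not called. Cebpa, which maintains liver genes at rest, was lower at both times (-1.21 and -1.80). Hnf4a, a factor that maintains hepatocyte genes, gave 0.51, not called, and 0.58, called higher. Mtf1, the zinc sensor that acts on metal response elements, gave -0.34 at 6 h and was higher at 20 h (1.56).

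**Figure D4:**
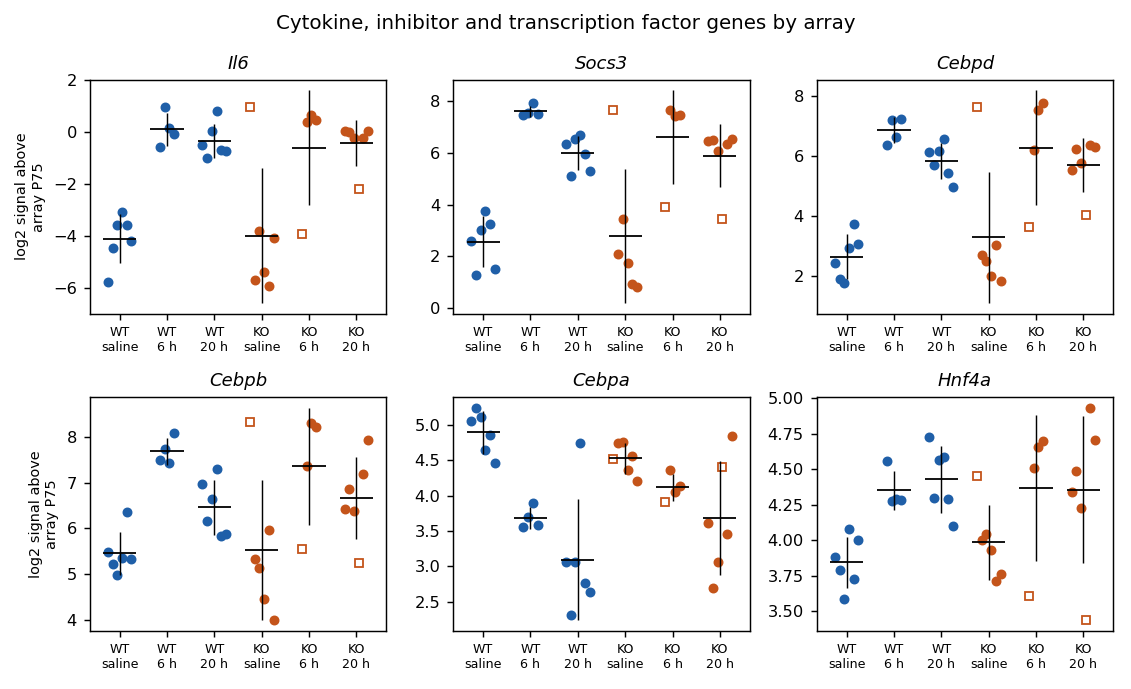
Level on every array of Il6, Socs3, Cebpd, Cebpb, Cebpa and Hnf4a, drawn as for the positive genes. In WT, Il6, Socs3 and Cebpd lie above saline at both times, and Cebpa lies below it at 6 h on all 4 arrays.

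Other acute-phase genes of the same class moved in part. Counts here stand beside 12.5% of all gene names higher and 16% lower at 6 h, and 16.5% and 20.1% at 20 h. The 6 h counts of the metal and haem genes lay near those shares. Of 30 measured in WT, 13 were higher and 0 lower at 6 h, and 11 were higher and 5 lower at 20 h. Lcn2, the siderophore-binding lipocalin, gave 7.50 and 8.06, and Il1rn, the interleukin-1 receptor antagonist, gave 7.40 and 6.37. Of 26 other secreted liver proteins, 1 was higher and 1 lower at 6 h, and 1 was higher and 18 were lower at 20 h, with a median of -1.04. Serpind1 (heparin cofactor II), at -3.86, and Igfals, at -3.66, were the lowest of that list. Of 16 genes of copper, iron, zinc and haem handling, 3 were higher and 2 lower at 6 h, and 6 higher and 4 lower at 20 h, among them the zinc importer Slc39a14 (2.95 and 1.77).

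Markers of other cells moved as well. Marker counts stand beside 12.5% of all gene names higher and 16% lower at 6 h, and 16.5% and 20.1% at 20 h. In WT, 7 of 9 neutrophil markers were higher at 6 h and 8 of 9 at 20 h, and their summed level, in multiples of the array's 75th percentile, ran from 2.44 to 9.51 in saline, 55.8 to 96.9 at 6 h and 53.5 to 133 at 20 h. Of 10 hepatocyte markers, 1 was higher at 6 h, and 1 was higher and 6 lower at 20 h, with a sum of 1191 to 1607 in saline, 1493 to 1969 at 6 h and 695 to 1019 at 20 h. Of 11 Kupffer cell and macrophage markers, 9 were lower and 1 higher at 20 h (76.3 in median in saline against 36.0). Of 9 sinusoidal endothelial markers, 5 were lower and 1 higher at 20 h, with a sum of 29.7 to 50.7 in saline and 10.1 to 30.0 at 20 h. Of 10 stellate cell and fibroblast markers, 6 were lower and 2 higher at 20 h (87.7 to 169 in saline, 95.4 to 181 at 20 h). Of 4 adipocyte markers, 2 were higher at 20 h, where the sum was 77.4 to 168 against 4.69 to 10.2 in saline, and Lep was above background on no array. Cholangiocyte markers gave 2 higher and 1 lower of 6 at 20 h. Lymphocyte markers gave 1 higher and 2 lower of 9, near the shares over all gene names. No hepatocyte, neutrophil or Kupffer marker that was measured lay below background on every array. The part of these shifts in the changes of the plasma protein genes was not tested.

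In KO liver at 6 h with all arrays, 9 of the 37 genes were higher (Saa1, Saa2, Saa3, Orm1, Orm2, Orm3, Serpina3n, Serpina3g and Mt2) and none was lower, where 1.58% of gene names were higher and 1.03% lower. The adjusted p of these 9 lay between 0.0451 and 0.0497. With the slide as a block all 9 calls were lost (adjusted p from 0.153 to 0.159), and with normexp and quantile normalization 0 genes were called higher. Without the pair of libraries that stand apart, 23 genes were higher, 21 of them positive genes, and none lower, with 12.9% of gene names higher and 16.3% lower. Fetub and Ambp were the other 2. The neutrophil marker sum was 325 at its highest in KO saline and 9.45 at its lowest in KO at 6 h, both on the libraries that stand apart, and its part in these counts was not tested. Leaving out KO saline replicate 1 alone, or KO LPS 6 h replicate 1 alone, gave 21. Saa3 in KO saline read 10.33 on replicate 1 and 2.05, 5.84, 3.77, 3.98 and 4.09 on the others, and at 6 h it read 7.74 on replicate 1 and 9.05, 10.03 and 9.98 on the others. Without the pair its groups did not overlap, and the rise was 5.74 ± 0.72 (53.3-fold), against 4.19 ± 0.95 with all arrays.

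The third scan date holds both of these libraries. Within it, 4 of the 9 genes called in KO at 6 h kept their sign. Orm1, Orm2, Orm3, Serpina3n and Serpina3g turned, while all 9 kept it within the other dates. The same arrays gave the calls, and KO at 6 h had 1 array on date 1 and 1 on date 3. Without the pair, Lbp rose by 3.32 ± 0.40, Mt2 by 6.60 ± 1.06 (96.9-fold), Steap4 by 5.58 ± 0.78 (48.0-fold) and Crp by 2.01 ± 0.38 (4.02-fold). Serpina6 read 5.21 ± 0.43 (SD, n = 5) in KO saline and 6.77 ± 0.15 (SD, n = 3) at 6 h, a change of 1.56 ± 0.61 that did not pass (adjusted p = 0.0548).

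At 20 h in KO liver, 19 genes were higher and 6 lower with all arrays, where 11.7% of gene names were higher and 14.6% lower. The 19 were the positive genes other than Hp, Crp and Serpina3m, and the 6 were Itih1, Ttr, Rbp4, Serpina6, Azgp1 and Afm. Without the pair, 20 were higher and 6 lower, with 16% of gene names higher and 18.9% lower. Cell markers moved at the same time in KO: 8 of 9 neutrophil markers were higher, and 6 of 10 hepatocyte, 6 of 11 Kupffer, 6 of 10 stellate and 4 of 9 endothelial markers were lower, with all arrays. In the same lists, 1 hepatocyte, 1 Kupffer, 2 stellate and 1 endothelial marker were higher. The adipocyte sum had a median of 7.48 in KO saline and 86.4 at 20 h. The part of these markers in the changes was not tested. Serpina3n rose by 3.46 ± 0.54 with all arrays and by 4.07 ± 0.30 without the pair (16.9-fold). Apcs read 1.95 to 4.64 in KO saline and 5.21 to 6.21 at 20 h, and rose by 3.29 ± 0.54 (9.77-fold).

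Ttr in KO ran from 4.69 to 5.58 in saline and read 0.84, 1.92, 1.56, 4.91, 1.87 and 4.43 at 20 h. Replicates 4 and 6 lay at or near the saline range and the other 4 arrays lay well below it. Ttr fell by 2.47 (SE 0.47, 5.54-fold lower), by 2.48 without the pair and by 2.95 when replicate 4 was also left out. On replicate 4 the positive genes were at LPS levels in part, with Saa3 at 9.85 and Orm2 at 8.52, while Steap4 read 2.25, inside the range of 0.46 to 3.10 of the KO saline arrays other than replicate 1 and below the other 20 h arrays (4.96 to 7.33).

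From 6 h to 20 h in KO, 2 genes were higher (Orm1 and Apcs) and 6 lower (Itih1, Ttr, Rbp4, Serpina6, Azgp1 and Afm), where 7.25% of gene names were higher and 8.34% lower. The count of 2 ran from 0 to 3 when each array was left out in turn, and was 0 with the slide as a block. Without the pair, 1 was higher (Orm1) and 8 were lower, with 11.5% of gene names higher and 10.9% lower. Crp was then among the lower genes (3.10-fold, adjusted p = 0.00203), and Serpina6 was 8.29-fold lower.

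**Figure D5:**
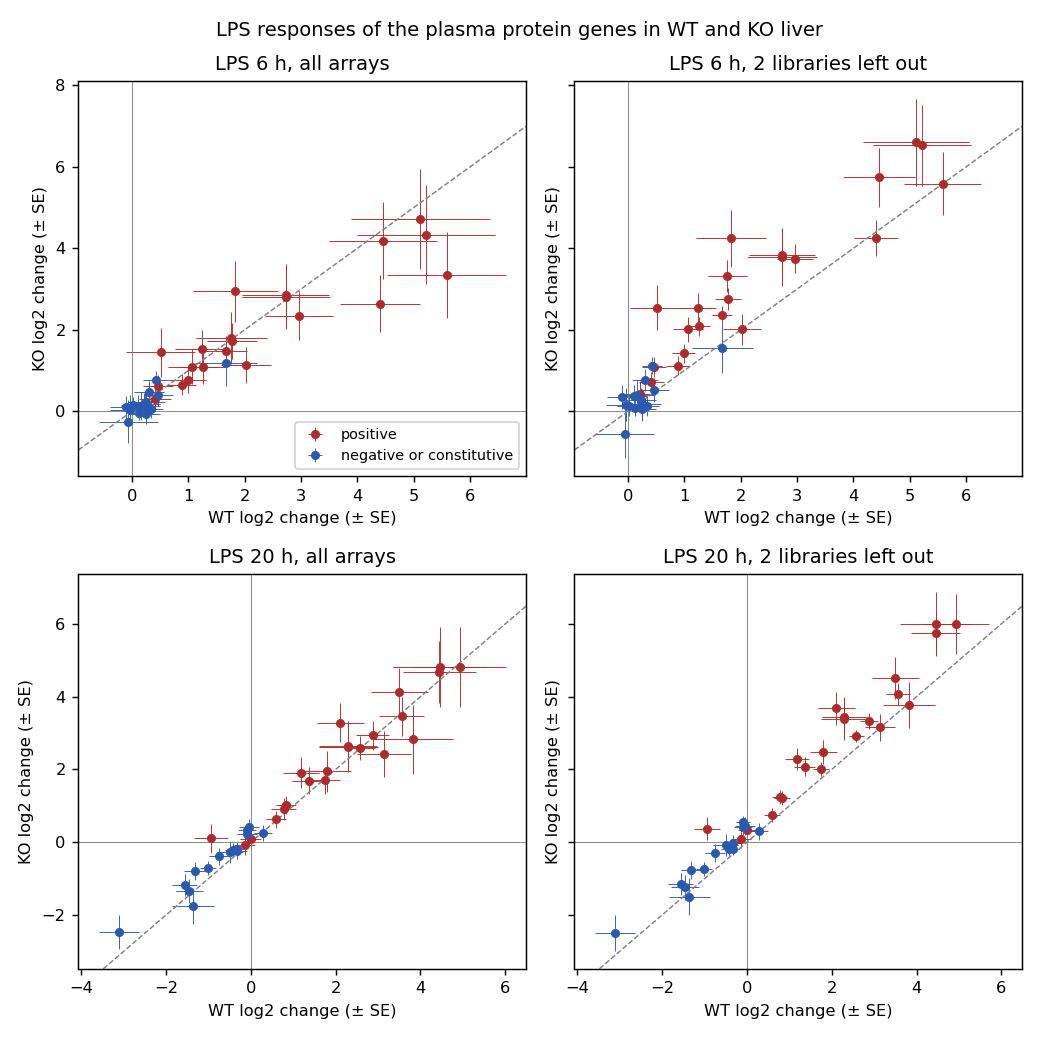
Log2 change against saline in KO (vertical) set against WT (horizontal) for each of the 37 genes, with standard errors, at 6 h (top) and 20 h (bottom), with all arrays (left) and without 2 libraries (right). The dashed line marks equal change. Leaving out the pair moves the positive genes (red) upward at 6 h, and no gene passed the test of the difference between genotypes in any panel.

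Between the genotypes, no member was called by limma on saline, at 6 h or at 20 h of LPS, nor in the test of genotype by LPS at either time, where 0.333%, 1.26%, 0.323%, 0.125% and 0.0417% of gene names were called in these 5 tests. Unadjusted p was under 0.05 for 0, 1, 2, 0 and 0 of the 37. Without the pair again none was called, where 0.354%, 1.34%, 0.526%, 0.151% and 0.0573% of gene names were. Unadjusted limma p was then under 0.05 for 1, 6, 3, 9 and 5 of the 37. These percentages are at adjusted p. The share of all gene names at unadjusted p is not given here, so neither set of unadjusted counts can be read as an excess. The lowest adjusted p of a member was 0.445 with all arrays and 0.102 without the pair. That last value was Lbp at 6 h, which read 6.41, 7.19 and 6.97 in KO and 4.81, 5.73, 5.87 and 5.58 in WT, a difference of 1.36 ± 0.42.

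Differences between KO and WT ran from -0.96 to 1.17 on saline, from -1.27 to 0.63 at 6 h and from -0.57 to 0.92 at 20 h, and without the pair from -1.35 to 0.45 on saline and from -0.64 to 1.54 at 6 h. At 20 h, 35 of the 37 genes were above 0, with a median of 0.28 beside -0.00 over all gene names. On saline 23 were above 0, and at 6 h 20 were. Without the pair, 8 of the 37 were above 0 on saline, 30 at 6 h and 35 at 20 h. The difference in the LPS change was then above 0 for 29 at 6 h and 35 at 20 h. With all arrays, the 20 h median was also 0.32 in other acute-phase genes, 0.27 in other secreted liver proteins and 0.38 in hepatocyte markers. It was -0.14 in stellate and -0.51 in adipocyte markers. The upward shift is thus not particular to these 37 genes. The 37 values come from the same arrays and are not independent. Some of the 37 had probes near the ceiling in both genotypes at 20 h, such as Hp on all 6 arrays of each. That ceiling lay 9.11 to 9.99 above the 75th percentile in WT at 20 h and 9.69 to 10.3 in KO. For such genes the sign of the difference can follow the scaling. Its part in the shift was not tested. Crp gave the largest difference at 20 h (0.92 ± 0.40 with all arrays, adjusted p = 0.56, and 0.92 ± 0.30 without the pair, adjusted p = 0.228). Differences in the LPS change ran from -2.24 to 1.11 at 6 h and from -1.0 to 1.18 at 20 h, and without the pair from -0.49 to 2.41 and from -0.14 to 1.57. With standard errors of this size, a test that misses the threshold does not show that the genotypes responded alike.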

How the data were processed

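Per the file headers, the authors scanned each one-colour array with Agilent Feature Extraction 10.7.1.1, and the deposited intensity used here is the processed signal, background-subtracted by that software. The authors also deposited a table of log2 values, used as an alternative. Each intensity was divided by the array's 75th percentile and taken to log2. Control and outlier spots were left out, spots of a probe were averaged, a probe had to exceed background clearly on 4 or more arrays, and each gene name was read from its brightest probe. One model over the 6 groups of single mice was fitted with limma 3.58.1 in R 4.3.3 (lmFit and eBayes), with Benjamini-Hochberg adjustment over 19199 gene names. The members and gene lists were chosen with earlier results of these data known. Named genes are E2f1, all 37 members, at most 4 called genes of each pathway list with the largest change per comparison, and 12 regulators; marker lists are given as counts and sums. Some genes that this rule names are not reported here. Same-numbered arrays share only a number, since the labels give no pairing. Alternatives were other normalizations, filters, blocks, scan dates, left-out arrays and a threshold of 0.01.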

Additional observations from a re-analysis of the deposited data

Results flagged for a closer look

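Of 222 levels of a gene in a group, 27 held 1 array far from the others, judged by its gap to the nearest array over the group's range, and chance gives about 1 in 20. The genes were read on the same arrays, so the levels are not independent and that rate is only a guide. Replicate 1 of KO saline gave 9 of the flags, and replicate 1 of KO at 6 h gave 10. In KO saline, replicate 1 was the highest for Saa4 (7.6), Orm1 (7.32), Orm2 (7.49), Orm3 (1.38), Hpx (10.8), Lbp (6.62), Crp (3.62), Itih3 (9.14) and Cp (7.58). In KO at 6 h, replicate 1 was the lowest for Saa4 (5.34), Orm1 (5.42), Orm2 (5.30), Apcs (2.0), Serpina3n (5.32), Itih4 (5.11), Cp (6.62), Mt1 (5.33), Steap4 (1.89) and Itih2 (5.84). In KO at 20 h, replicate 6 was the lowest for Apcs (5.21) and replicate 4 for Mt1 (7.05). In WT saline, replicate 4 was the highest for Itih4 (6.66) and replicate 6 the lowest for Fetub (6.47). In WT at 6 h, replicate 4 was the lowest for Steap4 (6.48) and Gc (8.45), and in WT at 20 h replicate 4 was the highest for Rbp4 (9.01) and Afm (6.42).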

How the results depend on the processing

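Of the counts of called genes among the 37, 776 stayed within 1.5 times their value across the alternatives and 101 did not. The 776 include counts of 0 that stayed 0 in every alternative, namely all genotype tests and the genes lower at 6 h. Counts above 0 were thus less stable than these totals show. Why the 101 moved was not tested. The 17 higher in WT at 6 h became 10 and 9 within scan dates 1 and 2 and 11 at a threshold of 0.01, and the 19 higher in WT at 20 h became 10 within date 1. The 1 higher from 6 h to 20 h in WT became 5 with quantile normalization or only the groups compared, 6 with normexp or the deposited table, 2 with median centring or a stricter filter, 4 without the pair of KO libraries or without 3, and 0 with no filter, a slide or scan date block, dates 1 and 3, or 0.01; the 9 lower became 1 in date 2 and 0 in date 3. The 9 higher in KO at 6 h became 4 with quantile normalization, 23 without the pair or without 3, 20 in date 2, and 0 with normexp, no filter, a slide block, date 3, only the groups compared or 0.01. In KO at 20 h the 19 higher became 11 in dates 1 and 2 and 0 in date 3, and the 6 lower became 0 in dates 2 and 3 and 3 with only the groups compared. From 6 h to 20 h in KO the 2 higher became 4 with quantile, normexp or the deposited table, 1 with median centring, outlier spots kept, without the pair or without 3, and 0 with no filter, a slide block, each date, only the groups compared or 0.01; the 6 lower became 1 in date 2 and 0 in date 3 and with only the groups compared. Leaving out each array in turn gave 0 to 4, 0 to 21 and 0 to 3 for the higher genes of WT 20 h against 6 h, KO 6 h and KO 20 h against 6 h. Signs turned for Hp in WT at 20 h (0.24, normexp and quantile) and, in KO at 6 h within date 3, for Orm1 (-0.83, a difference of means), Orm2 (-0.85), Orm3 (-0.47), Serpina3n (-1.16) and Serpina3g (-1.26). With the replicate number as a block, 14 were higher in WT at 6 h, 17 higher and 7 lower in WT at 20 h, 0 higher in KO at 6 h and from 6 h to 20 h in either genotype, 18 higher and 6 lower in KO at 20 h, and 0 by genotype. Over 72 same-numbered pairs the correlation of deviations ran from -0.684 to 0.339, so the numbers were not taken as a pairing. Signal near the scanner ceiling limits the brightest probes.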
